A study of Mus musculus with 4 samples.

Results

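The vascular endothelial growth factor (VEGF) family was read out here as 10 genes, namely the ligands *Vegfa*, *Vegfb*, *Vegfc*, *Vegfd* and *Pgf*, the receptor tyrosine kinases *Kdr*, *Flt1* and *Flt4*, and the neuropilins *Nrp1* and *Nrp2*. They were listed by gene symbol, with earlier results of these data known, out of 53703 genes in the single-cell tables, and all 10 passed the filter on low values. VEGF-A binds the receptors encoded by *Flt1* and *Kdr*, and the *Kdr* product carries most of the signal for endothelial growth and sprouting, whereas the *Flt1* product binds VEGF-A tightly and signals weakly. VEGF-B and placental growth factor (*Pgf*) bind the *Flt1* product, VEGF-C and VEGF-D bind the *Flt4* product, and neuropilins are co-receptors shared with class 3 semaphorins. In the growth plate, VEGF-A from hypertrophic chondrocytes is known for drawing blood vessels into cartilage that is being turned into bone.

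The study used 4 single-cell RNA libraries, prepared at 12 weeks from the metaphysis of mouse femur and tibia after removal of blood cells, 2 from Lats2iECKO mutants and 2 from controls. Mutants carried loxP-flanked *Lats2* and Cdh5(PAC)-CreERT2, a transgene that expresses a tamoxifen-dependent Cre under an endothelial promoter, and tamoxifen was given at 4–5 weeks. Controls were Cre-negative littermates that also carried the floxed *Lats2* alleles and, by the study's methods, received the same tamoxifen, although the labels list them as untreated. All animals were on a C57BL/6 background with a Cdh5-mT/nG reporter, both sexes were used, and hematopoietic cells had been depleted with magnetic beads. The study calls the libraries of a genotype biological replicates, but the labels do not say that they came from separate animals, so p-values measure the spread between these libraries only.

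Each library held 69636600 to 85899079 unique molecular identifiers (UMIs), and 5119 to 6813 barcodes per library were kept, 24599 in all, with median depths of 7574 to 8181 UMIs. Of these, 20852 fell into 25 cell classes, with 6 of endothelial cells (ECs), 11 of chondrocytes (CHO) and 8 of other stromal cells. Libraries shared 6 to 16 cell barcodes per pair. In all ECs, the targeted gene *Lats2* was at 90.2 and 95.8 CPM (UMIs of the gene per 1e6 UMIs of the class) in the mutants and at 133 and 124 CPM in the controls, a log2 fold change of -0.39 (SE 0.0785, edgeR adjusted p = 4.46e-04). The CreERT2 transcript was at 56.0 and 50.8 CPM in mutant ECs and at 0.689 and 0.954 CPM in control ECs, so both checks followed the labels. The members were not used to build or name any class, and classes whose markers gave no clear name keep a number with their leading genes.

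The windows upstream of *Vegfa*, *Pgf* and *Flt4* are shown because these genes carried the largest shifts of chondrocyte ligand, endothelial ligand and endothelial receptor in the pooled cell types. Each is the 250 bases before the start of the canonical transcript, written 5′ to 3′ on the strand of the gene, from the GRCm39 genome (mm39) with GENCODE starts. Letters in capitals mark the hypoxia response core ACGTG, or its reverse complement CACGT. *Vegfa* (chr17:46343310-46343559, minus strand, GC content 59.6%) and *Flt4* (chr11:49499840-49500089, plus strand, 42.8%) held no match, and *Pgf* (chr12:85224565-85224814, minus strand, 56.8%) held 1 match in reverse, 85 bases from its start.
Vegfa: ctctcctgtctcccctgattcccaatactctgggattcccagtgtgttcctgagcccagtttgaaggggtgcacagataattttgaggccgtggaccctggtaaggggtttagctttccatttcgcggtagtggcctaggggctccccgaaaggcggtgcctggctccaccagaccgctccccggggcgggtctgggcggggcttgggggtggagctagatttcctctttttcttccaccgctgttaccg
Pgf: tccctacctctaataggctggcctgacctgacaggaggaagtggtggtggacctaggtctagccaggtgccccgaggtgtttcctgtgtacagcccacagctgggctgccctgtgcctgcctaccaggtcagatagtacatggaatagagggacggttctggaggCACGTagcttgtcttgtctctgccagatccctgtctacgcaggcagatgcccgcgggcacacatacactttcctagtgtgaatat
Flt4: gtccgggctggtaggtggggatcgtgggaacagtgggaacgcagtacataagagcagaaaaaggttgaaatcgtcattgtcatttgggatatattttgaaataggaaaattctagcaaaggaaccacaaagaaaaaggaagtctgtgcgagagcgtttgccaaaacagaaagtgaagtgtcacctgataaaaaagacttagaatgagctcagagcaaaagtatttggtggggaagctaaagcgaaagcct

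Over the same window, ACGTG on either strand was also present before *Vegfb*, *Vegfd* and *Nrp1*, which made 4 of the 10 members, and it was present in 17.0% of 21757 promoter windows. The TEAD core GGAATG, the motif of the DNA-binding partners of YAP1 and TAZ, was absent on both strands from all 10 windows and present in 12.1% of all windows. These are matches of letters only.

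In control bone, the ligands were divided between cartilage, stroma and arteries. *Vegfa* was highest in CHO cluster 0, led by *Ptgs2*, *Col10a1* (the collagen X gene of hypertrophic cartilage) and *Ihh*, at 162 ± 15.3 CPM (mean ± SD, n = 2), followed by diaphyseal bone marrow stromal cells (dpMSCs) at 86.7 ± 1.58 CPM. Both control libraries of each of these classes lay above both of the next class in the order. The leading genes of CHO cluster 0 are those of both genotypes together, with 593 and 629 mutant and 141 and 139 control cells. Its control cells differed from its mutant cells in markers, as given below, so 162 CPM is the level of cells clustered with them. CHO cluster 3, led by *Panx3* and *Smpd3*, followed at 67.0 ± 3.02 CPM and overlapped with the classes after it, and within ECs the range was 1.75 to 43.1 CPM. *Vegfc* was highest in dpMSCs at 892 ± 18.9 CPM and in arterial ECs (aECs) at 821 ± 53.0 CPM, and these neighbours did not overlap. Metaphyseal stromal cells (mpMSCs) followed far below at 165 ± 9.52 CPM. *Pgf* was highest in smooth muscle cell (SMC) classes, at 94.4 ± 2.75 CPM in SMC cluster 1, 94.0 ± 31.6 CPM in Myh11- SMCs and 84.4 ± 2.10 CPM in SMC cluster 0. The libraries of Myh11- SMCs overlapped with those of both clusters. The study reports its Myh11- SMCs as enriched in mutants. The class of that name here held 27 and 26 mutant and 32 and 33 control cells, and SMC cluster 1 held 206 and 254 against 37 and 37. The study's Myh11- SMCs may thus include SMC cluster 1, and this overlap was not tested. Tip-like ECs (tipECs) followed at 70.1 ± 6.70 CPM. The name of that class rests on the clustered cells of both genotypes, since its control cells held 800 to 1096 CPM of the 5 tip markers but 1311 to 1467 CPM of the 5 bmEC markers, and so their values are those of cells clustered with tip cells.

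The remaining ligands were sparse. *Vegfb* reached at most 30.4 ± 3.72 CPM, in SMC cluster 0, and no class stood far apart from the rest. *Vegfd* was highest in CHO cluster 14, led by *Clic5*, *Fgl2* and *Col22a1*. This cluster is counted with the chondrocytes because it came from their subclustering, but its 10 chondrocyte markers summed to 169.98 to 415 CPM, its 8 fibroblast markers to 1386 to 2299 CPM, with 1 at 0, and its 5 resting chondrocyte markers to 48103 to 82623 CPM. Its part in the values of all chondrocytes was not tested. The control libraries were at 118 and 16.4 CPM of *Vegfd* in that class, so the order of classes for *Vegfd* was not resolved.

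The receptors were endothelial. *Kdr* ranged from 247 to 1061 CPM over the 6 EC classes of controls and did not exceed 3.75 CPM in any other class. It was highest in metaphyseal ECs (mpECs) at 1061 ± 102 CPM and in marrow ECs (bmECs) at 954 ± 48.0 CPM, and lowest in arteriole-like ECs (alECs) at 247 ± 5.34 CPM. *Flt1* ranged from 1179 to 2869 CPM over EC classes with its highest level in mpECs, and outside ECs it reached 121 CPM in SMC cluster 3, where the libraries were 153 and 89.98 CPM on 20 and 21 cells, with free RNA estimated at 5.11% and 38.4% of their UMIs and 13.1% of the cells of this class called doublets. *Flt4*, known as the receptor gene of lymphatic and sinusoidal endothelium, was highest in bmECs at 587 ± 13.1 CPM, lay at 261 ± 65.3 CPM in tipECs and 237 ± 33.0 CPM in mpECs, which overlapped, and was lowest in alECs at 20.7 ± 10.9 CPM. Lymphatic endothelium was rare in the libraries. The 5 barcodes that held UMIs of *Prox1*, *Lyve1* and *Ccl21a* together all held *Flt4*, with 27 UMIs in sum.

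The neuropilins were broader. *Nrp1* was highest in mpECs at 1179 ± 27.6 CPM, apart from the next class, EC cluster 6, at 938 ± 59.2 CPM. SMC cluster 1, at 886 ± 204 CPM, and dpMSCs, at 852 ± 8.89 CPM, followed, and their libraries overlapped. *Nrp2* was highest in osteoblasts (OBs) at 1217 ± 55.9 CPM and in mpMSCs at 656 ± 20.4 CPM, and was lowest among ECs in aECs at 107 ± 1.31 CPM.

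**Figure D1:**
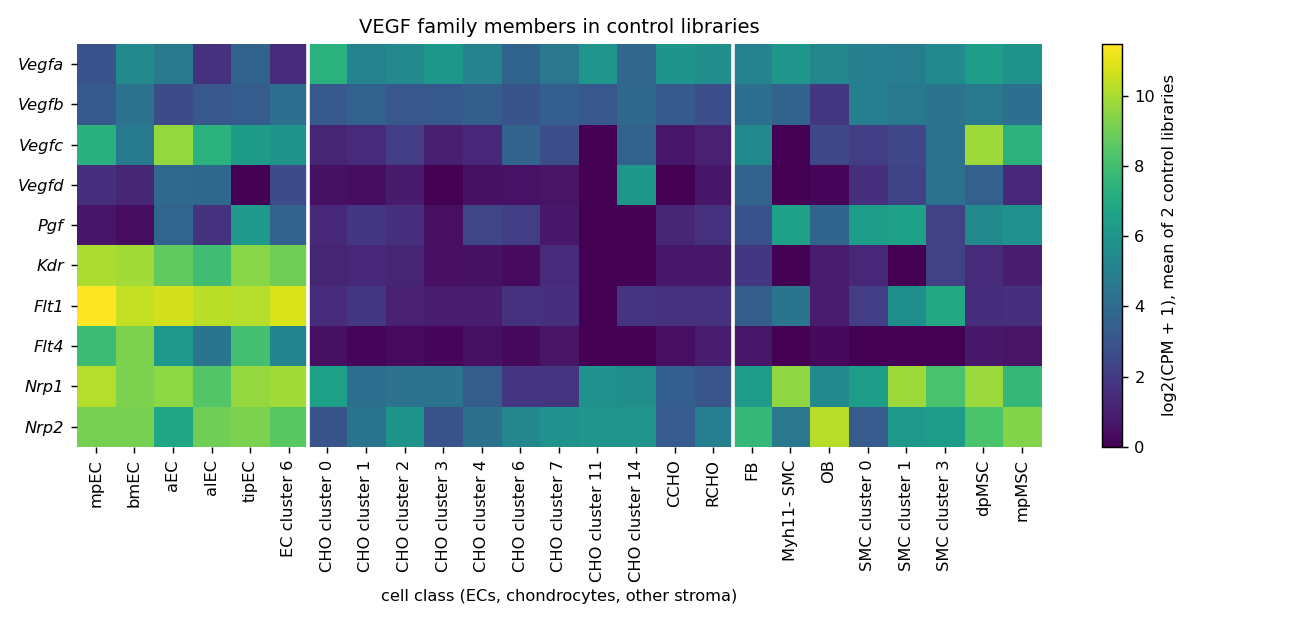
Mean level of the 10 genes (rows) in 25 cell classes (columns) of the 2 control libraries, as log2(CPM + 1), to be compared along a row only because CPM is not corrected for gene length. *Kdr*, *Flt1* and *Flt4* are concentrated in the 6 EC classes, whereas *Vegfa* spans cartilage and stroma and peaks in CHO cluster 0 at 162 CPM.

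By the Pearson correlation of log2(CPM + 1) over the 25 control class means, among 7440 genes of at least 50 CPM in some class, the genes most like *Kdr* were *Nova2* (0.987), *Robo4* (0.984) and *Adgrl4* (0.984). For *Flt1* they were *Emcn* (0.974), *Parvb* (0.970) and *Prex2* (0.962), and for *Flt4* they were *Naip2* (0.989), *Ces2e* (0.982) and *Fam167b* (0.980). *Vegfc* was most like *Fbln5* (0.919), *Tnfrsf1b* (0.887) and *Xdh* (0.875), and *Nrp1* was most like *Plxnd1* (0.923), a semaphorin receptor gene, then *Tacc1* (0.922) and *Parp12* (0.919). Likeness was lower for *Vegfa*, with *Efemp2* (0.832), *Epb41l5* (0.793) and *Ptprf* (0.785), and for *Nrp2*, with *Abca1* (0.870), *Mtss1* (0.862) and *Elmo1* (0.852). It was also lower for *Pgf*, with *Cacnb4* (0.820), *Frk* (0.814) and *Gm6249* (0.796), for *Vegfb*, with *Hnrnpr* (0.813), *Cabin1* (0.775) and *Prkacb* (0.773), and for *Vegfd*, with *Rtn1* (0.804), *Lysmd2* (0.802) and *Ssna1* (0.799). These correlations are descriptions, since the class means share libraries.

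To ask how loss of endothelial *Lats2* altered the family within ECs, the UMIs of all ECs in a library were added up, from 513 and 638 mutant and 826 and 796 control cells. In this sum over all ECs, the receptors and neuropilins fell and *Pgf* rose. Of the 10 members, 7 were called at an edgeR adjusted p of at most 0.05, 6 lower and 1 higher in mutants, against 40% of all genes tested in ECs, and their median log2 fold change was -0.38 beside -0.00 over all genes.

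*Pgf* was at 147 and 105 CPM in Lats2iECKO 1 and 2 and at 8.44 and 8.39 CPM in control 1 and 2. Its mean was 14.9-fold higher in mutants, with a log2 fold change of 3.96 (SE 0.163, adjusted p = 7.23e-14). The genotypes were far apart, and the mutant libraries differed more from each other than the controls did. *Flt4* was at 99.2 and 93.2 CPM in mutants and at 263 and 278 CPM in controls, and fell by 1.41 on the log2 scale (SE 0.073, adjusted p = 2.06e-12), the largest decrease among the members. *Kdr* was at 377 and 370.2 CPM in mutants and at 772 and 737 CPM in controls, and fell by 0.94 (SE 0.0604, adjusted p = 6.96e-11). Both receptors showed no overlap between genotypes.

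*Flt1* was at 1210.5 and 1179 CPM in mutants and at 1877 and 1797 CPM in controls, and fell by 0.54 (SE 0.0574, adjusted p = 1.47e-07). *Nrp1* went from 820.2 and 779 CPM in controls to 477 and 452 CPM in mutants, a fall by 0.71 (SE 0.0605, adjusted p = 6.57e-09). *Nrp2* went from 462 and 426 CPM to 290.3 and 295 CPM, and fell by 0.52 (SE 0.064, adjusted p = 1.10e-06). All 3 were lower in every mutant library than in every control library. The genotypes did not overlap for any of the 10 members in all ECs, those not called included. How often they do so over all genes was not counted.

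*Vegfc*, the ligand of the *Flt4* product, was at 223 and 200.1 CPM in mutants and at 273 and 254 CPM in controls, and fell by 0.24 (SE 0.0697, adjusted p = 0.00764). That call was lost without Lats2iECKO 2 (-0.18) or without control 1 (-0.20), and under the stricter cell filter (-0.16). *Vegfa* was at 22.4 and 25.1 CPM in mutant and 21.4 and 18.9 CPM in control ECs and did not pass the test (log2 fold change 0.32, SE 0.143, adjusted p = 0.0809). *Vegfb* (adjusted p = 0.316) and *Vegfd* (adjusted p = 0.819) did not pass either.

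The mix of EC classes differed between the genotypes, so each class was also given equal weight in each library. The log2 ratio of means then went from -1.49 to -0.62 for *Flt4*, from -1.01 to -0.49 for *Kdr*, from -0.78 to -0.56 for *Nrp1*, from -0.62 to -0.41 for *Flt1* and from -0.60 to -0.48 for *Nrp2*. It went from 3.90 to 2.77 for *Pgf*. These 6 values were smaller in size at equal weight, and they kept their direction. The other values were larger in size, from -0.32 to -0.44 for *Vegfc*, from -0.17 to -0.59 for *Vegfd*, from 0.24 to 0.75 for *Vegfa* and from 0.16 to 0.19 for *Vegfb*. The libraries of the genotypes overlapped for *Vegfb* at equal weight. How often those of all genes overlap was not counted, and no test was run on these ratios.

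When each cell was thinned to 1000 UMIs, a UMI of *Kdr* was found in 25.1% and 24.5% of mutant ECs and in 43.9% and 45.7% of control ECs. Unthinned, the shares were 65.9% and 67.9% against 79.4% and 78.9%, whereas in chondrocytes, which should lack the receptor, they were 0.360% to 1.11%. Median depth was 6599 and 6402.5 UMIs in mutant ECs, 5433 and 5038 UMIs in control ECs, and 10819 to 12583 UMIs in chondrocytes. The exact permutation test of the thinned shares, 2-sided, gave p = 0.33, the smallest that 2 against 2 libraries allow.

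Within the EC classes, 44 member-by-class tests could be run, of which 18 were called, 15 lower and 3 higher in mutants, against 12.4% of all gene-by-class tests. The median of the member log2 fold changes was -0.37, beside -0.00 for all genes. Each receptor was called lower in 3 of 6 classes. *Pgf* was called higher in 2 of the 3 classes in which it was tested, and the other did not pass, at -0.72. In the remaining classes *Pgf* had too few UMIs to test. tipECs, the class with the markers of sprouting cells such as *Esm1*, *Apln* and *Angpt2*, held the most calls, 8 of 8 members tested, against 25.1% of all genes tested in that class. The study names no tip class. Its markers of metaphyseal ECs include *Nox4*, given as specific to mutants, and *Nox4* is among the leading genes of tipECs here. The study's metaphyseal ECs may thus include cells named tipECs here, and the mpECs here need not be the same cells. This overlap was not tested.

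**Figure D2:**
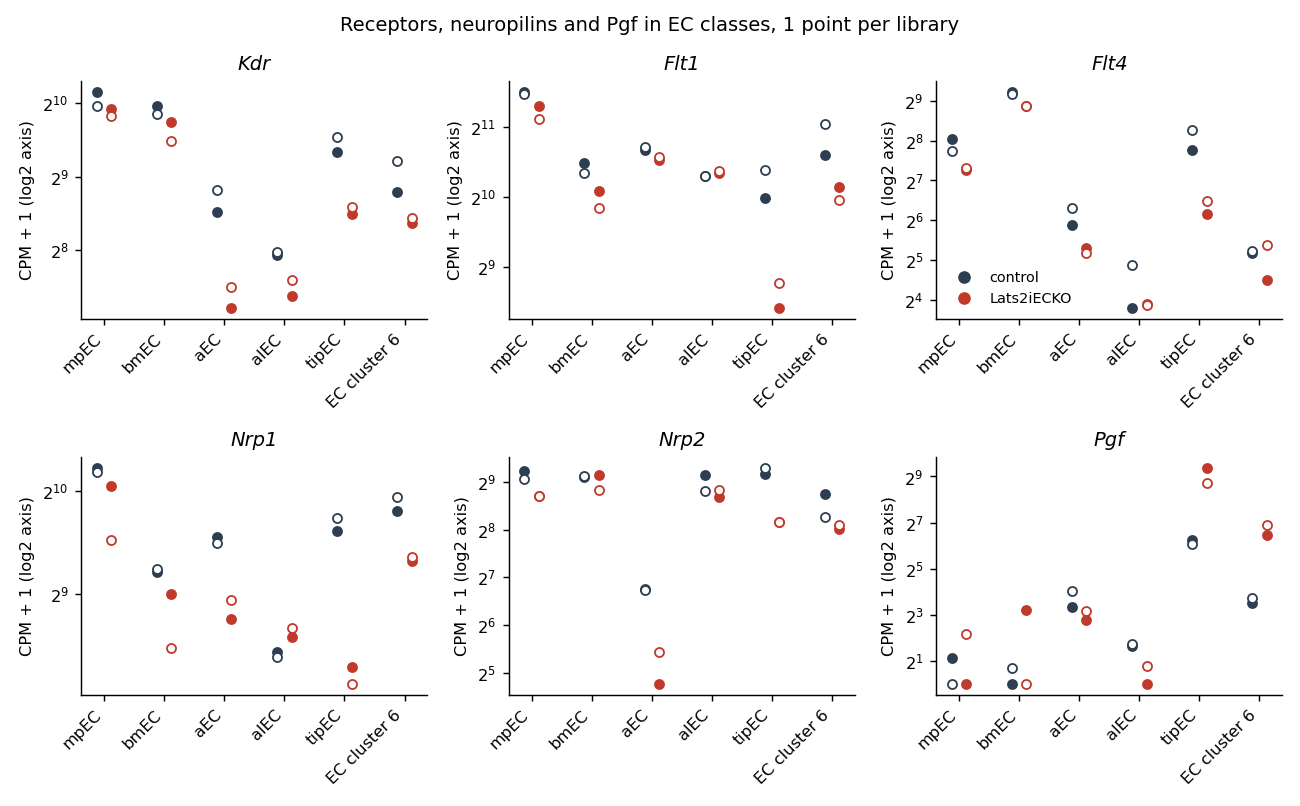
Level of *Kdr*, *Flt1*, *Flt4*, *Nrp1*, *Nrp2* and *Pgf* (CPM + 1, log2 axis) in 6 EC classes, 1 point per library (filled for replicate 1, open for replicate 2, blue for control, red for Lats2iECKO). In tipECs the mutant points lie below the controls for the 5 receptor and neuropilin genes and above them for *Pgf*.

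In tipECs, *Pgf* was at 669 and 424 CPM in mutants and at 74.8 and 65.3 CPM in controls, 7.80-fold higher (log2 fold change 3.01, SE 0.212, adjusted p = 2.15e-20). *Vegfc* was at 7.27 and 2.39 CPM in mutants and at 67.6 and 81.7 CPM in controls, and fell by 3.90 on the log2 scale (SE 0.424, adjusted p = 4.29e-12), on 63 UMIs over all libraries. *Flt1* was at 339 and 434 CPM in mutants and at 1016 and 1343 CPM in controls, and fell by 1.52 (SE 0.136, adjusted p = 1.58e-15). The genotypes were separated for each of these genes, as in 37 of the 44 member tests in EC classes.

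*Flt4* in tipECs was at 70.6 and 88.3 CPM in mutants and at 215 and 307 CPM in controls, and fell by 1.60 (SE 0.196, adjusted p = 2.54e-10). *Nrp1* was at 314 and 279 CPM against 784 and 856 CPM, a fall by 1.39 (SE 0.138, adjusted p = 1.34e-13). *Nrp2* was at 284 and 287 CPM against 577 and 631 CPM (-1.0, SE 0.144, adjusted p = 3.25e-08), and *Kdr* was at 360.5 and 384 CPM against 644 and 738 CPM (-0.81, SE 0.138, adjusted p = 2.19e-06). The receptor and neuropilin genes were therefore lower in this class in both mutant libraries. *Vegfa* was at 35.3 and 31.0 CPM against 7.24 and 16.3 CPM (1.63, SE 0.478, adjusted p = 0.00691), a call that was lost without control 1 (1.08), with DESeq2 (1.61) and with cells gated one by one (0.12, adjusted p = 0.919). The *Kdr* call was lost with gated cells too (-0.57, adjusted p = 0.083).

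The mutant and control cells of this class differed in other measures too. The summed level of the 5 tip markers was 4690 to 5010 CPM in mutants and 800 to 1096 CPM in controls, and that of the 5 bmEC markers was 392.3 to 465 CPM in mutants and 1311 to 1467 CPM in controls, with no marker of either list at 0. Median depth was 7750.5 and 7581 UMIs in mutants and 3759 and 3264 UMIs in controls, and the estimated share of free RNA was 1.22% and 1.44% against 10.5% and 2.79%. With free RNA subtracted, all 18 calls in EC classes were kept, those of tipECs included. The part of the marker differences in the tipEC values was not tested. Without integration of the libraries, 13 and 7 control cells were assigned to tipECs, too few to test. After thinning to 1000 UMIs, a UMI of *Pgf* was found in 27.5% and 33.9% of mutant against 7.59% and 1.69% of control tipECs, and a UMI of *Flt1* in 25.0% and 23.9% against 57.0% and 67.8%. The direction of both was therefore as in the summed values.

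In aECs, 4 members were called, all lower in mutants, against 18.9% of all genes tested in aECs. *Nrp2* was at 26.2 and 42.5 CPM in mutants and 107 and 106 CPM in controls (-1.52, SE 0.183, adjusted p = 1.04e-09), and *Kdr* was at 148 and 181 CPM against 367 and 449 CPM (-1.21, SE 0.112, adjusted p = 1.59e-13). *Nrp1* was at 434 and 491 CPM against 749 and 722 CPM (-0.57, SE 0.0838, adjusted p = 1.67e-07). *Flt4* was at 38.5 and 35.3 CPM against 57.9 and 78.0 CPM (-0.78, SE 0.197, adjusted p = 0.002), and that call was lost without control 2 (-0.56). *Flt1*, in contrast, was at 1476 and 1518 CPM in mutant and 1627 and 1688 CPM in control aECs and did not pass (-0.05, SE 0.0657, adjusted p = 0.647). Arterial *Vegfc*, at 686 and 658 CPM against 858 and 783 CPM, did not pass either (-0.20, SE 0.0785, adjusted p = 0.0715).

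The other EC classes held few calls, and most rested on single libraries. Of all genes tested, 0.844% were called in EC cluster 6, 8.68% in mpECs, 8.63% in bmECs and 7.97% in alECs. Mutant mpECs numbered 53 and 62 against 202 and 179 control cells, and mutant bmECs 56 and 56 against 184 and 203. With so few mutant cells, the lack of a call there does not show a lack of change. EC cluster 6, led by *Chga* and *Timp4*, had higher *Pgf*, at 86.4 and 119 CPM in mutants and 10.5 and 12.2 CPM in controls (3.18, SE 0.449, adjusted p = 0.00528). Its *Flt1* was at 1126 and 993 CPM against 1558 and 2107 CPM (-0.78, adjusted p = 0.0401), a call lost without Lats2iECKO 2 (-0.69) or control 2 (-0.54). In mpECs, *Flt4* was at 154 and 157 CPM against 261 and 214 CPM (-0.55, SE 0.16, adjusted p = 0.0265), lost without Lats2iECKO 1 (-0.53), Lats2iECKO 2 (-0.58) or control 1 (-0.40). In bmECs, *Flt1* was at 1089 and 919 CPM against 1434 and 1293 CPM (-0.34, SE 0.103, adjusted p = 0.0485), lost without Lats2iECKO 2 (-0.25), control 1 (-0.27) or control 2 (-0.40).

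Marrow *Flt4*, the highest level of that receptor gene in controls, was at 467 and 469.7 CPM in mutant and 596 and 577 CPM in control bmECs and did not pass (-0.22, SE 0.114, adjusted p = 0.259). In alECs, *Kdr* was at 166 and 192 CPM against 243 and 251 CPM (-0.44, SE 0.145, adjusted p = 0.0362), a call lost without any 1 of the 4 libraries, with values from -0.54 to -0.36. *Vegfc* in alECs was at 115 and 92.2 CPM against 127 and 194 CPM (-0.63, SE 0.178, adjusted p = 0.0086), lost without Lats2iECKO 2 (-0.45) or control 2 (-0.31), with gated cells (-0.29), under the stricter cell filter (-0.53), without integration (-0.61), with no filter on low counts (-0.55) and with DESeq2 (-0.63). This class made up 23.2% and 24.9% of mutant and 9.32% and 9.67% of control ECs. Its median depth was 6718 and 6640 UMIs against 4876 and 4039 UMIs. The markers that named it include *Vwf* and *Tagln*, which the study reports as higher in its mutant metaphyseal ECs. Whether its mutant and control cells are alike was not tested.

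Whether the genotype effect differed between EC classes was tested as the effect in 1 class minus the mean effect in the others. Of 60 member-by-class contrasts, 12 were called, over 6 members, against 1.91% of all gene-by-class contrasts. In tipECs the decrease was larger for *Vegfc*, *Flt1*, *Flt4* and *Nrp1* than in the other classes, by -3.47, -1.22, -1.12 and -1.04 on the log2 scale. In aECs it was larger for *Nrp2* (-1.12) and *Kdr* (-0.80). The aEC contrast of *Nrp2* was lost with gated cells (-0.95). That of *Kdr* was lost when cells were clustered without the genes that changed between genotypes (-0.42). The tipEC contrasts compare cells that differed in markers and depth, as given above, and could not be run without integration, and with gated cells those of *Nrp1* (-0.48) and *Flt4* (-0.33) were lost.

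Genes of the VEGF pathway outside the family were read from lists chosen with earlier results of these data known. Over all genes tested in ECs, 20.5% were higher and 19.5% lower in mutants, and the median log2 fold change was -0.0012. Of 14 tested VEGF-induced endothelial genes, 12 were higher and 1 was lower in all mutant ECs, with a median log2 fold change of 0.81. *Angpt2*, the Tie2 ligand gene of sprouting vessels, was at 300.4 and 288 CPM against 23.4 and 11.4 CPM (4.13), *Apln* was at 322 and 378 CPM against 31.4 and 33.2 CPM (3.52), and *Esm1* was at 287 and 274 CPM against 30.8 and 23.1 CPM (3.45). These 3 genes are also tipEC markers, as is *Nid2* of the same list. tipECs made up 15.6% and 17.1% of mutant and 9.56% and 7.41% of control ECs, and the 5 tip markers summed to 1283 to 1355 CPM against 307.9 to 308.3 CPM in all ECs. Within tipECs, 6 genes of the list were higher and 2 lower of 13 tested, against 25.1% of all genes called there. As the list shares these genes with the markers that named the class, that count is not independent of the naming. The part of the mix in the pooled values was not tested. Of 28 tested genes of VEGF receptor signal transduction, 11 were lower and 4 higher (median -0.11), led by *Vav3* (-1.51), the endocytic adaptor gene *Dab2* (-0.99) and *Vav2* (-0.90).

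Of 8 tested class 3 semaphorins and plexins, ligands and partners of the neuropilins, 5 were lower and 1 was higher in mutant ECs (median -0.42). *Sema3a* was at 48.5 and 31.5 CPM against 179 and 207 CPM (-2.21), and *Sema3g* was lower too (-0.49). *Sema3d* was also called (-1.52), but on a mutant mean of 1.81 CPM and a control mean of 5.86 CPM, where free RNA alone was estimated at up to 5.05 CPM, and is not read as a decrease. *Sema3a* is among the leading genes of bmECs, which made up 10.9% and 8.78% of mutant and 22.3% and 25.5% of control ECs, and the part of this mix in its pooled value was not tested. Of 5 tested genes of VEGF-C and VEGF-D maturation and lymphatic identity, the protease gene *Pcsk5* was lower (-0.74), *Furin* was higher (0.28) and 3 did not pass, a share of calls equal to the 40% of all genes. Of 16 tested genes of oxygen sensing and hypoxia response, 11 were higher and 2 lower (median 0.41), led by *Adm* (3.89), *Egln3* (3.73) and *Ankrd37* (2.92), which encode the vasoactive peptide adrenomedullin, an oxygen-sensing hydroxylase and an ankyrin repeat protein. *Adm* is also among the leading genes of tipECs, a larger share of mutant than of control ECs. Within tipECs, 9 genes of this list were higher and 1 lower of 14 tested, against 25.1% of all genes called there. The part of the mix in the pooled values was not tested.

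In cartilage, *Vegfa* rose. In all chondrocytes summed, 6 of 10 members were called, 4 higher and 2 lower, against 42.9% of all genes tested in chondrocytes. *Vegfa* was at 229 and 217 CPM in the mutants and at 56.8 and 54.0 CPM in the controls, 4.03-fold higher (log2 fold change 2.06, SE 0.0515, adjusted p = 4.38e-12), on 15789 UMIs. *Vegfb* was at 13.4 and 13.8 CPM against 8.53 and 8.49 CPM (0.72, SE 0.0887, adjusted p = 1.96e-05). Both ligands were higher in every mutant library than in any control library, and 8 of the 10 members showed no overlap of genotypes here. The mix of classes differed here too, since CHO cluster 0, the highest *Vegfa* class, made up 593 of 2222 and 629 of 2482 mutant but 141 of 1625 and 139 of 1699 control chondrocytes, and its part in the pooled value was not tested.

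*Nrp1*, at 24.7 and 25.1 CPM against 22.6 and 20.4 CPM (0.26, SE 0.068, adjusted p = 0.00754), and *Nrp2*, at 25.2 and 26.4 CPM against 23.7 and 23.2 CPM (0.18, SE 0.0635, adjusted p = 0.0313), changed less. The *Nrp1* call was lost without control 2 (0.19), and that of *Nrp2* without Lats2iECKO 2 (0.16), control 1 (0.19) or control 2 (0.17). When cells were clustered without the genes that changed between genotypes, these values turned to -0.42 for *Nrp1* and -0.90 for *Nrp2*, and with gated cells they were 0.0081 and 0.073 and not called. The 2 decreases, of *Flt1* (-1.22, adjusted p = 0.00372) and *Vegfc* (-0.78, adjusted p = 0.00884), were at levels of at most 2.85 CPM, where free RNA alone was estimated at up to 1.42 CPM for *Vegfc*, and the *Vegfc* call was lost without control 2 (-0.67) and with free RNA subtracted (-0.24, adjusted p = 0.522). The *Flt1* call was lost without integration (-0.41), and both were lost with DESeq2.

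Over the chondrocyte classes, 17 of 39 member-by-class tests were called, against 16.8% of all gene-by-class tests, and 14 of them were higher in mutants, against 9.39% of all tests higher. *Vegfa* was called higher in all 10 classes in which it was tested, with log2 fold changes from 0.54 to 3.23. In CHO cluster 0, it was at 810.0 and 762 CPM in mutants and at 173 and 152 CPM in controls, 4.84-fold higher (2.23, SE 0.104, adjusted p = 4.51e-09). This call was lost without Lats2iECKO 2, while the value stayed at 2.29. In CHO cluster 11, led by *Edn2* and *Adm*, it was at 613 and 706 CPM against 47.5 and 76.8 CPM (3.23, SE 0.419, adjusted p = 2.60e-04), on only 19 and 20 control cells.

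The genotypes did not overlap in either cluster, as in 29 of the 39 member tests in chondrocyte classes, but their cells also differed in depth and markers. In CHO cluster 11 the 10 chondrocyte markers summed to 7253 to 8443 CPM in mutants and 37752 to 47375 CPM in controls, and free RNA was estimated at 2.02% and 2.27% against 5.998% and 11.5% of UMIs. The call was kept with free RNA subtracted, and the part of the markers in the value was not tested. In CHO cluster 0 the median depth was 8076 and 7838 UMIs in mutants and 16407 and 17015 UMIs in controls, with 593 and 629 against 141 and 139 cells. The summed level of the 10 chondrocyte markers was 15943 to 16306 CPM in mutants and 49027 to 58046 CPM in controls, and that of the 8 osteoblast markers was 1209 to 1999 CPM against 17948 to 19189 CPM, with no marker at 0. The part of the marker differences in the *Vegfa* value was not tested. For depth, when cells were thinned to 1000 UMIs, 50.9% and 50.9% of mutant and 17.7% and 9.35% of control cells of the cluster held a UMI of *Vegfa*.

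The rise was present in the other chondrocyte classes tested as well. *Vegfa* was at 152 and 147 CPM against 59.0 and 61.5 CPM in columnar chondrocytes (CCHO; 1.43, SE 0.129, adjusted p = 3.71e-06). In CHO cluster 3, it was at 162 and 154 CPM against 64.9 and 69.2 CPM (1.34, SE 0.0855, adjusted p = 6.13e-10). In CHO cluster 4, led by *Pcp4* and *Rgs6*, it was at 102 and 96.6 CPM against 35.6 and 33.1 CPM (1.65, SE 0.14, adjusted p = 2.87e-07). None of these classes showed an overlap of genotypes. In CHO cluster 1, led by *Ccnd1*, it was at 78.7 and 77.4 CPM against 35.6 and 33.2 CPM (1.28, SE 0.111, adjusted p = 3.67e-09).

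The 5 hypertrophic chondrocyte markers were summed in the same classes. They reached 24321 to 26218 CPM in mutants and 8648 to 9848 CPM in controls in CHO cluster 3, 1292 to 4187 CPM against 255 to 389 CPM in CHO cluster 4, and 3834 to 3984 CPM against 940.2 to 2506 CPM in CHO cluster 1. The 8 osteoblast markers of CHO cluster 3 were at 20337 to 20602 CPM against 9469 to 9555 CPM. The hypertrophic sum was also higher with no overlap in CHO clusters 2, 6 and 7, overlapped in CCHO and RCHO, and was lower in mutants in CHO clusters 0 and 11, and no marker of either list was at 0. The part of these differences in the *Vegfa* values was not tested.

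In resting chondrocytes (RCHO) *Vegfa* was at 75.9 and 82.5 CPM against 53.7 and 47.0 CPM (0.71, SE 0.116, adjusted p = 3.85e-04). In CHO cluster 6, led by *Npy* and *Angptl7*, it was at 29.6 and 51.7 CPM against 11.7 and 12.3 CPM (1.84, SE 0.269, adjusted p = 6.06e-04), lost without integration (1.29). The calls of 2 further classes rested on single libraries. In CHO cluster 7, led by *Msmp* and *Casr*, *Vegfa* was at 71.3 and 54.1 CPM against 14.3 and 31.1 CPM (1.40, SE 0.272, adjusted p = 9.47e-04), lost without Lats2iECKO 1 (1.20) or control 1 (1.04) and without integration (0.87). In CHO cluster 2, led by *Spon1*, it was at 64.8 and 51.4 CPM against 40.7 and 41.8 CPM (0.54, SE 0.154, adjusted p = 0.0385), lost without Lats2iECKO 1 (0.37), control 1 (0.53) or control 2 (0.56), and with replicate number as a block (0.54). *Vegfa* in CHO cluster 2 was also not called with total counts (0.49) or with free RNA subtracted (0.49). CHO cluster 14 held too few *Vegfa* UMIs to test, at 37.2 and 28.8 CPM against 13.7 and 12.3 CPM.

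**Figure D3:**
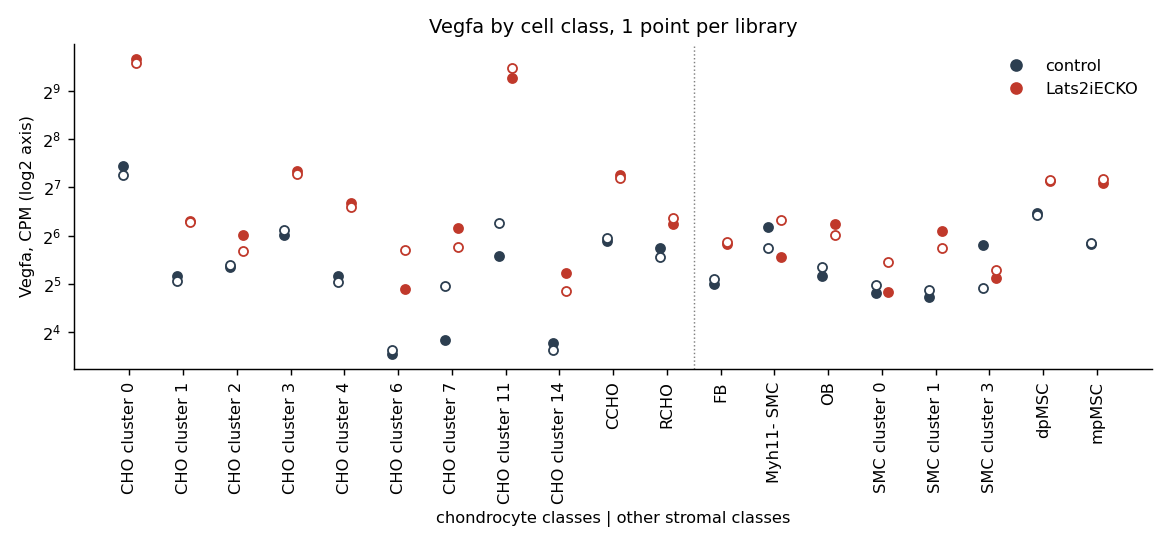
*Vegfa* level (CPM, log2 axis) in 11 chondrocyte and 8 other stromal classes, 1 point per library (filled for replicate 1, open for replicate 2, blue for control, red for Lats2iECKO). In CHO cluster 0 the mutant libraries lie at 810.0 and 762 CPM and the controls at 173 and 152 CPM, and the gap is narrower in the stromal classes.

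The remaining chondrocyte calls concerned *Vegfb* and the neuropilins. In CHO cluster 0, *Vegfb* was at 22.8 and 25.5 CPM against 7.95 and 7.73 CPM (1.58, SE 0.218, adjusted p = 7.20e-05) and *Nrp2* was at 30.2 and 26.6 CPM against 6.63 and 7.30 CPM (1.98, SE 0.224, adjusted p = 1.34e-05). Both calls were lost without Lats2iECKO 2, at 1.504 for *Vegfb* and 2.08 for *Nrp2*. *Nrp1* in that cluster was at 73.0 and 73.5 CPM against 94.6 and 85.9 CPM (-0.34, SE 0.105, adjusted p = 0.0187), lost without Lats2iECKO 1 (-0.35), Lats2iECKO 2 (-0.34) or control 1 (-0.30). That call was also lost under the study's filter on low counts (-0.25), with no filter (-0.28) and with clusters built without the changed genes (-0.24).

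*Nrp2* did not move one way over the cartilage. It was higher in CHO cluster 1 (0.68, adjusted p = 0.00143) and CHO cluster 4 (1.01, adjusted p = 0.00271, lost without Lats2iECKO 2 at 0.76), and lower in RCHO (-0.92, adjusted p = 0.00193, lost without integration at -0.52 and with gated cells at -0.83) and CHO cluster 7 (-1.12, adjusted p = 0.0217, lost without Lats2iECKO 1 at -0.95 or control 1 at -0.45). The CHO cluster 7 call was also lost with free RNA subtracted (-0.99) and with total counts (-1.13). With clusters built without the changed genes, the *Nrp2* value was -0.69 in CHO cluster 0 and -0.47 in CHO cluster 1, so the sign of these increases depended on how the cells were clustered.

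The same lists were read in all chondrocytes, where 21.5% of all genes tested were higher and 21.4% lower and the median log2 fold change over all genes was -0.0014. Of 17 tested genes of oxygen sensing and hypoxia response, 13 were higher and 2 lower in mutants, with a median log2 fold change of 0.96. *Adm* was at 23.6 and 26.7 CPM against 1.38 and 1.11 CPM (4.38), the carbonic anhydrase gene *Car9* was at 4.44 and 4.68 CPM against 0.715 and 0.356 CPM (3.14), and *Ankrd37* was at 40.7 and 41.8 CPM against 9.58 and 9.25 CPM (2.18). CHO cluster 11, with *Adm* among its leading genes, held 46 and 49 mutant and 19 and 20 control cells. The part of this and of the larger mutant share of CHO cluster 0 in the pooled list values was not tested. VEGF-induced endothelial genes were higher in 11 and lower in 1 of 14 tested, in cells of which 0.360% to 1.11% held a UMI of *Kdr*. A response of these cells to VEGF was not tested. Class 3 semaphorins and plexins were lower in 6 of 12 with none higher, signal transduction genes were higher in 6 and lower in 5 of 30, and genes of VEGF-C and VEGF-D maturation were lower in 3 of 9. The shares called of the last 2 lists were below the 42.9% of all genes.

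In the other stromal classes, 17 of 40 tests were called, 10 higher and 7 lower in mutants, against 16.3% of all gene-by-class tests. *Vegfa* was called higher in 5 and *Pgf* in 3 of 6 classes tested, *Vegfc* lower in 2 of 4, and *Nrp2* lower in 4 and higher in 1 of 6. mpMSCs, the osteogenic stroma next to the growth plate, held 5 of the calls, against 33.5% of all genes tested in that class. Their own markers also differed, with a summed level of the 4 mpMSC markers of 1579 to 1596 CPM in mutants and 4986 to 5149 CPM in controls and no marker at 0, and the part of this in the values was not tested.

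*Vegfa* was at 136 and 144 CPM in mutant and 56.3 and 57.5 CPM in control mpMSCs (1.36, SE 0.0829, adjusted p = 8.09e-09). In dpMSCs it was at 139 and 141 CPM against 87.8 and 85.5 CPM (0.72, SE 0.0723, adjusted p = 1.52e-12), and in OBs it was at 75.5 and 64.4 CPM against 35.9 and 40.5 CPM (0.79, SE 0.119, adjusted p = 1.08e-04), a call lost without integration (0.51). All 3 were higher in every mutant library, and the genotypes did not overlap in 25 of the 40 member tests in these stromal classes. The hypertrophic chondrocyte markers summed to 12682 to 15517 CPM in mutant and 4618 to 5015 CPM in control OBs, with none at 0, and their part in the OB value was not tested. *Vegfa* was also called higher in fibroblasts (FB), at 56.7 and 58.3 CPM against 32.1 and 34.1 CPM (0.88, adjusted p = 0.0425), lost without any 1 library at 0.85 to 0.92. *Vegfa* in FB was also not called with total counts (0.79), free RNA subtracted (0.84) or clusters built without the changed genes (0.73). In SMC cluster 1, led by *Tmem273* and *Egln3*, it was at 67.8 and 53.9 CPM against 26.4 and 29.3 CPM (1.27, adjusted p = 0.0185), lost without Lats2iECKO 1 (1.09) or control 1 (1.19). SMC cluster 0 did not pass (0.31, adjusted p = 0.519).

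*Pgf* was at 114 and 108 CPM against 51.0 and 60.7 CPM in mpMSCs (1.05, SE 0.0994, adjusted p = 9.00e-07) and at 77.4 and 67.0 CPM against 44.4 and 44.1 CPM in dpMSCs (0.72, SE 0.0958, adjusted p = 1.09e-08). In SMC cluster 0, which has high *Pln*, it was at 158 and 165 CPM against 83.0 and 85.9 CPM (0.96, SE 0.142, adjusted p = 3.51e-06). The mutant libraries were above the controls in each. With clusters built without the changed genes, the mpMSC value turned to -0.83, and without integration it was 0.29 and no longer called.

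*Vegfc* was at 622 and 635 CPM against 906 and 879 CPM in dpMSCs (-0.48, SE 0.0499, adjusted p = 7.63e-12), its highest class. In mpMSCs it was at 74.2 and 83.2 CPM against 172 and 159 CPM (-1.0, SE 0.0839, adjusted p = 2.41e-07), and there the value without integration of the libraries was 0.56. Over dpMSCs and mpMSCs together (BMSCs) it fell by 0.94 on the log2 scale, and dpMSCs, its higher class, made up 428 of 926 and 542 of 1125 mutant but 1669 of 2286 and 1612 of 2241 control BMSCs. The part of this mix in the pooled value was not tested.

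*Nrp2* was at 948 and 964 CPM against 1257 and 1178 CPM in OBs (-0.41, SE 0.0787, adjusted p = 0.00123, lost without control 1 at -0.36). It was at 241 and 303 CPM against 670.3 and 641 CPM in mpMSCs (-1.20, SE 0.0874, adjusted p = 5.63e-08), where the value was 0.34 without integration and -0.13 with gated cells (adjusted p = 0.640). It was also lower in dpMSCs (-0.35) and FB (-1.06, lost at -0.67 with clusters built without the changed genes). In SMC cluster 1, by contrast, it was higher, at 119 and 147 CPM against 44.0 and 92.2 CPM (1.11, adjusted p = 0.00534), lost without control 1 (0.68).

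*Nrp1* was at 288 and 313 CPM against 203 and 203 CPM in mpMSCs (0.63, SE 0.0687, adjusted p = 3.92e-06), and this sign was turned by clustering without the changed genes (-1.30), without integration (-0.43) and by gating cells one by one (-0.065). In SMC cluster 1 it was at 405 and 367 CPM against 1030.3 and 741 CPM (-1.04, SE 0.147, adjusted p = 8.93e-06). In dpMSCs, its main stromal site, *Nrp1* was at 849.9 and 845 CPM against 859 and 846 CPM and did not pass (0.02, SE 0.0485, adjusted p = 0.827).

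**Figure D4:**
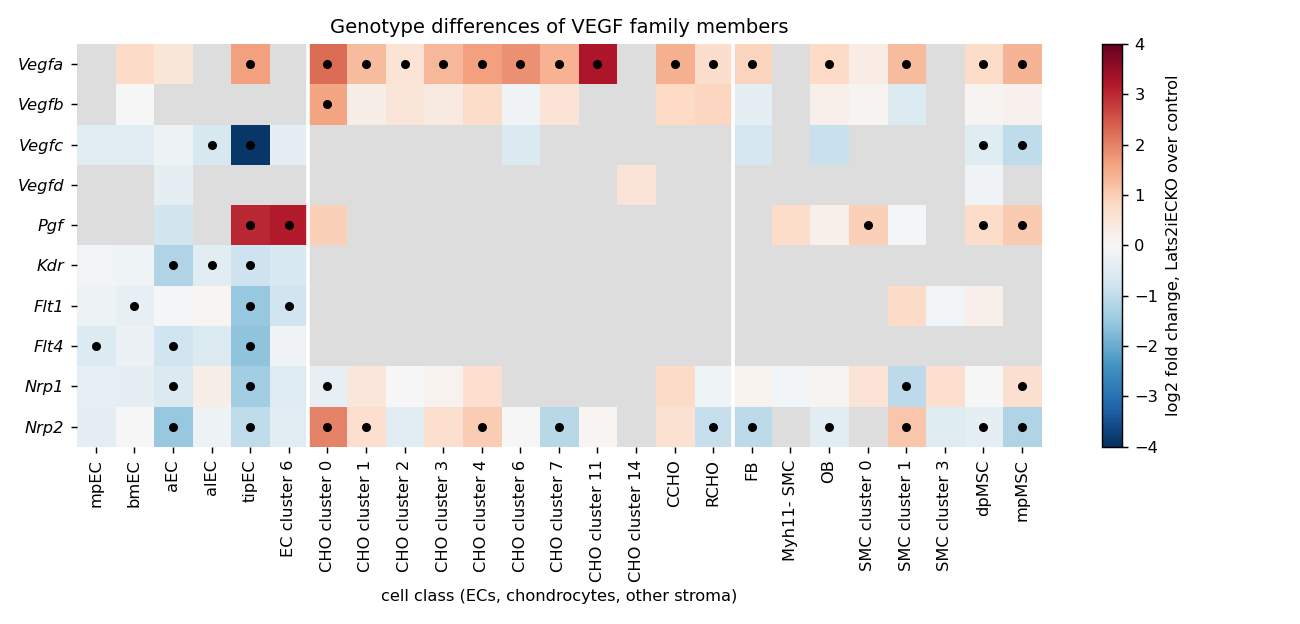
Log2 fold change of the 10 genes (rows) in each cell class (columns), Lats2iECKO against control, with a dot where the edgeR adjusted p was at most 0.05 and grey where a gene was not tested. *Vegfa* is positive in each of the 10 chondrocyte classes tested, whereas the receptors are tested almost only in ECs and are mostly negative there.

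In the SMC classes summed, the receptor gene *Flt1* was at 42.8 and 66.9 CPM against 15.7 and 28.4 CPM (1.36, SE 0.235, adjusted p = 6.13e-05) and *Nrp2* at 69.3 and 93.1 CPM against 22.8 and 27.1 CPM (1.75, SE 0.18, adjusted p = 3.26e-08). The 8 SMC markers summed to 12829 to 13307 CPM in mutants and 25257 to 25961 CPM in controls, and the 10 EC markers to 152 to 157 CPM and 207 to 208 CPM, with none at 0. Lists of other cells rose with the genes, with 5631 to 5735 CPM against 169 to 212 CPM for the 5 hypertrophic chondrocyte markers, 1949 to 2320 CPM against 564 to 641 CPM for the 5 dpMSC markers and 359 to 361 CPM against 153 to 160 CPM for the 5 tip markers, none at 0. Their part in the values of summed SMCs and of SMC cluster 1, where these 3 lists were higher too, was not tested. *Flt1* was called in none of the 3 non-endothelial classes in which it was tested (-0.12 to 0.77), and SMC cluster 1 made up 206 of 434 and 254 of 481 mutant but 37 of 270 and 37 of 281 control SMCs, a mix whose part in the pooled *Flt1* and *Nrp2* values was not tested. *Flt1* turned to -0.28 when cells were gated one by one, and *Nrp2* to -1.88 with clusters built without the changed genes. *Vegfa* (0.61, adjusted p = 0.004) and *Pgf* (0.43, adjusted p = 0.00883, lost without Lats2iECKO 1 at 0.30) were also higher.

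The share of each ligand's UMIs that each cell type contributed combines the level per cell with the number of cells. Chondrocytes held 72.1% ± 1.25 (SD, n = 2) of all *Vegfa* UMIs in mutants and 36.1% ± 0.442 in controls, while they made up 42.8% and 24.5% of the barcodes. BMSCs held 10.2% ± 1.23 and 35.8% ± 0.618 of *Vegfa*, and OBs held 12.96% ± 1.64 in controls. In mutants most *Vegfa* UMIs thus came from cartilage, and in controls cartilage and BMSCs held similar shares.

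ECs held 34.1% ± 2.84 of *Pgf* UMIs in mutants and 3.82% ± 0.493 in controls, with 10.4% and 11.9% of the barcodes. BMSCs held 33.8% ± 1.97 and 62.5% ± 0.263, and SMCs 18.2% ± 0.627 and 10.4% ± 0.323. *Vegfc* UMIs stayed mostly stromal, with 59.2% ± 1.75 in BMSCs of mutants and 79.8% ± 0.685 of controls, and 31.1% ± 1.70 and 11.8% ± 0.889 in ECs. No test was run on these shares.

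**Figure D5:**
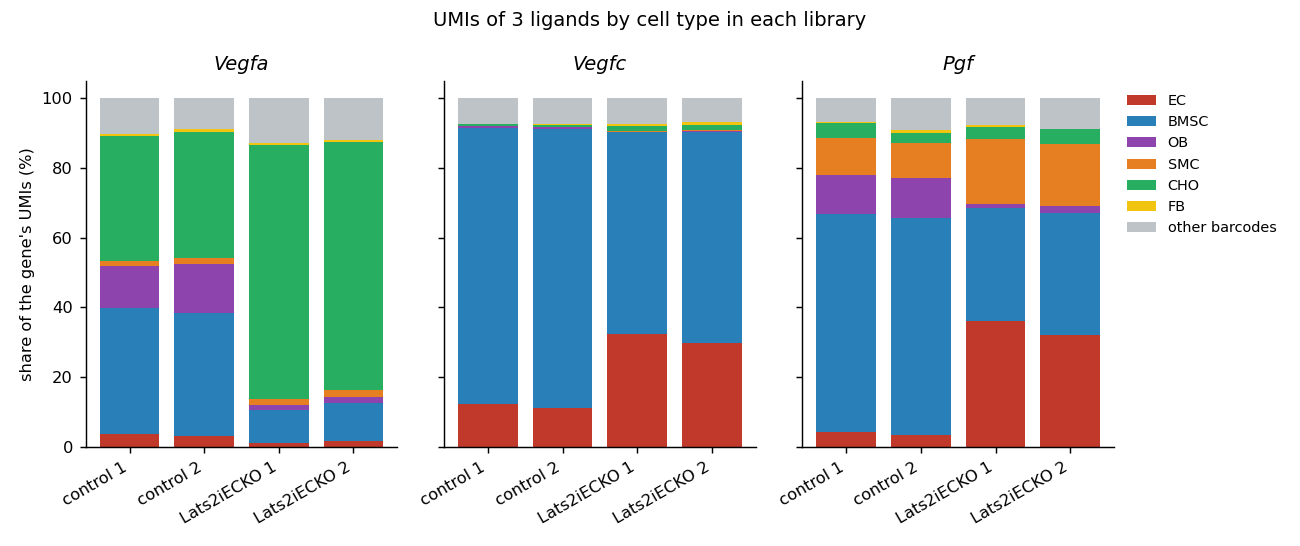
Share of the UMIs of *Vegfa*, *Vegfc* and *Pgf* (percent, stacked to the total) held by each cell type in each of the 4 libraries. Chondrocytes hold 72.1% of *Vegfa* on average in Lats2iECKO and 36.1% in controls, and ECs hold 34.1% and 3.82% of *Pgf*.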

How the data were processed

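The authors trimmed reads with cutadapt 3.5 and deposited expected counts from STARsolo 2.7.10a per gene and barcode, unfiltered, over exons and introns with strand, on mm39 (GRCm39) with GENCODE annotation plus the CreERT2 and reporter sequences. Reads shared by several genes were divided by expectation maximisation, so 9.09% to 9.95% of entries were fractions. Here barcodes with at least 1000 UMIs, at least 800 genes, at most 15% mitochondrial and at most 5% hemoglobin UMIs and a complexity of at least 0.8 were kept, limits taken from the study's methods, where the 15% is given for mitotic genes and was read here as mitochondrial. Library depths are given in the report.

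Cells were clustered in 2 rounds with scanpy 1.11.5 and leidenalg 0.10.2, after scran 1.30.0 size factors and integration of the libraries with an own implementation of Harmony (4000 variable genes, 50 components and 15 neighbors at first). In round 2, classes were named from marker lists when the score was at least 0.5 and at least 3 markers reached 10 CPM. The 10 leading genes also had to hold at least 1 marker of the list, and more than of any other list. These limits were chosen once the clusters were known but ahead of any comparison of genotypes. By score alone, CHO clusters 0 and 3 were closest to pre-hypertrophic chondrocytes, and SMC clusters 0 and 1 to Myh11+ and Myh11- SMCs. Round 1 left out clusters whose markers named no stromal type, with at least 20% doublet calls (own implementation) or with fewer than 100 cells. Round 2 left out clusters only for such a share of doublets or for fewer than 40 cells. Classes with markers of another type were thus kept, such as CHO cluster 3, with *Bglap* and *Bglap2* among its leading genes. Also left out were a cycling EC cluster with 7 cells in 1 control library and a lymphatic-like cluster of 15 cells. The 10 members were left out of clustering and markers. Counts were summed per library and class, rounded, and tested with edgeR 4.0.16 (quasi-likelihood, TMM, R 4.3.3) where a gene had at least 40 counts over the 4 libraries and each library at least 10 cells, with Benjamini-Hochberg adjustment over all genes of a class. SE is the size of the log2 fold change divided by the square root of F. Levels are CPM of the class total. The edgeR step was tested on simulated data.

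Named are all members, Lats2 and CreERT2, the 3 called genes of each pathway list with the largest change in size, and the 3 genes most like each member. The members and lists were chosen with earlier results of these data known. Replicate numbers did not pair the samples, since the correlation of their deviations ran from -0.04 to 0.05 over 6 cell types. Alternatives were DESeq2 1.42.0, other size factors and filters, leaving out a library, a replicate block, subtraction of free RNA, removal of doublets, a stricter cell filter, no integration, gating cells one by one, and clusters built without changed genes.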

Additional observations from a re-analysis of the deposited data

Results flagged for a closer look

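The genotype effect of 6 members differed between EC classes by the test of the difference itself, taken as the log2 fold change in a class minus the mean over the other EC classes (edgeR, adjusted over all genes). In tipECs the difference was -3.47 for *Vegfc* (SE 0.494, adjusted p = 8.32e-07), -1.22 for *Flt1* (SE 0.138, adjusted p = 3.31e-09), -1.12 for *Flt4* (SE 0.237, adjusted p = 7.86e-04) and -1.04 for *Nrp1* (SE 0.146, adjusted p = 5.62e-07). With cells gated one by one the values were -2.06 for *Vegfc* and -0.48 for *Flt1*, both still past the test, and -0.33 for *Flt4* and -0.48 for *Nrp1*, which were not. Without integration tipECs held too few control cells to test, and the mutant and control cells of the class differed in tip markers (4690 to 5010 CPM against 800 to 1096 CPM) and in median depth (7750.5 and 7581 UMIs against 3759 and 3264 UMIs).

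In aECs the difference was -1.12 for *Nrp2* (SE 0.209, adjusted p = 5.56e-04) and -0.80 for *Kdr* (SE 0.145, adjusted p = 3.90e-04), while *Flt1* (0.48) and *Vegfc* (0.93) fell less in aECs than over the other classes, whose mean includes tipECs. With gated cells, *Nrp2* (-0.95), *Flt1* (0.35) and *Vegfc* (0.51) in aECs were not called. Without integration, *Flt1* (0.28) and *Vegfc* (0.24) were not. With clusters built without changed genes, *Kdr* (-0.42) and *Vegfc* (0.16) were not, and *Flt1* was lost with DESeq2 (0.49). In alECs, *Nrp1* (0.94), *Flt1* (0.72) and *Nrp2* (0.53) were above the mean effect of the other classes, and in bmECs *Nrp2* was (0.63). Clusters built without changed genes left 3 EC classes to compare. There *Flt1* in alECs turned to -0.62 and was called, and *Nrp1* (-0.24) and *Nrp2* (0.20) were not called. With gated cells, *Nrp1* (0.64) and *Nrp2* (0.45) in alECs and *Nrp2* in bmECs (0.45) were lost. *Nrp2* in bmECs was also lost without integration (0.58), with free RNA subtracted (0.60) and without Lats2iECKO 1 (0.40). The contrast of *Nrp2* in alECs was also lost with DESeq2 (0.48), RLE size factors (0.48), the study's filter (0.49) and the stricter cell filter (0.51). It was lost without integration (0.41) and without Lats2iECKO 1 (0.52) or Lats2iECKO 2 (0.51) too. *Flt1* in aECs was lost without Lats2iECKO 2 (0.46). No other member of the family passed this test in any EC class. Leaving out either control library ended the same 4 of the 12 differences, those of *Nrp2* in bmECs and alECs and of *Flt1* and *Vegfc* in aECs.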

How the results depend on the processing

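Of 73 member-by-class values called, pooled types included, all 73 kept call and direction with RLE size factors and with called doublets removed, 69 with total counts, 69 with no filter on low counts, 68 of 72 after subtraction of free RNA, 64 of 71 under the stricter cell filter, 60 of 61 under the study's filter and 52 with DESeq2, which gave no adjusted p for 2. With replicate number as a block 72 did, the exception being *Vegfa* in CHO cluster 2 (0.54). Leaving out 1 library kept 59 to 64. Without integration 48 of 60 did, with cells gated one by one 43 of 53, and with clusters built without changed genes 39 of 49. No library left out turned a sign. The calls lost with DESeq2 were, in pooled types, *Nrp1*, *Nrp2*, *Flt1* and *Vegfc* in chondrocytes and *Pgf* and *Vegfa* in SMCs, in EC classes *Vegfa* in tipECs, *Flt4* in aECs and mpECs, *Kdr* and *Vegfc* in alECs and *Flt1* in bmECs, in chondrocytes *Nrp1* in CHO cluster 0, *Nrp2* in CHO clusters 1 and 4 and *Vegfa* in CHO cluster 2, and *Vegfa* in FB and *Vegfa* and *Nrp2* in SMC cluster 1. The stricter filter also ended those of *Pgf* in SMCs (0.31), *Flt4* in mpECs (-0.42), *Vegfa* in FB (0.90) and *Nrp2* in CHO clusters 1 (0.58) and 7 (-0.67), absence of integration that of *Flt1* in EC cluster 6 (-0.60) and of *Nrp2* in CHO cluster 7 (-1.50), and gating that of *Kdr* in alECs (-0.52).

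Calls in EC classes went from 18 of 44 tests to 11 of 37 without integration, which left tipECs and their 8 calls untested. Those in chondrocyte classes went from 17 of 39 to 11 of 39 with DESeq2, 2 of them for want of an adjusted p and otherwise with the cause not tested, and to 4 of 13 with gated cells, which left 2 of 11 classes. Those in other stromal classes went from 17 of 40 to 10 of 35 without integration. The members with an effect that differed between EC classes numbered 6 as reported and 4 to 7 over the alternatives, with 4 without integration and with gated cells. The contrasts called went from 12 of 60 to 4 of 50 without integration, 5 of 50 with gated cells, 7 of 30 with clusters built without changed genes, and 8 of 60 without either control library. The 7 of 30 include *Flt1* in alECs with its sign turned.

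Clusters built without the 13647 genes called in any class gave 39.9% of the shared cells the same class, and gating gave 59.4%, so the classes of both hold other sets of cells in part, and mostly so for the first. Among the contrasts between EC classes, clusters built without changed genes turned the signs of *Flt1* (-0.62, called) and *Nrp1* (-0.24, not called) in alECs. Signs of fold changes turned with clusters built without changed genes for *Nrp2* in all chondrocytes (-0.90), all SMCs (-1.88), CHO cluster 0 (-0.69) and CHO cluster 1 (-0.47), *Nrp1* in all chondrocytes (-0.42) and mpMSCs (-1.30) and *Pgf* in mpMSCs (-0.83). They turned with gated cells for *Flt1* in all SMCs (-0.28) and *Nrp1* in mpMSCs (-0.065), and without integration for *Nrp2* (0.34), *Vegfc* (0.56) and *Nrp1* (-0.43) in mpMSCs.

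The chondrocyte share of *Vegfa* UMIs moved to 74.1% in mutants and 38.9% in controls with doublets removed, to 55.8% and 32.4% with gated cells, and to 37.0% in controls under the stricter filter. The BMSC share of *Vegfc* moved to 61.4% and 83.5% with doublets removed, to 54.1% and 77.4% with gated cells, and to 80.5% in controls under the stricter filter. The EC share of *Pgf* in controls moved to 4.91% with gated cells. The equal weight of EC classes was chosen after seeing the data. With 2 libraries a genotype, the permutation tests of shares could not reach the threshold, and counts sufficed to test 44 of 60 member-by-class pairs in ECs, 39 of 110 in chondrocytes and 40 of 80 in other stroma.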
